A study of Mus musculus with 12 samples.

Results

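Serum response factor (SRF) is a transcription factor that binds the CArG box, a short AT-rich stretch between a CC and a GG, in the promoters of actin and adhesion genes. It works with cofactors of 2 kinds. The MRTF cofactors are held by unpolymerised actin and are released when RhoA signalling drives actin into filaments, and the TCF factors (Elk1, Elk3, Elk4) are switched on by ERK and serve immediate early genes such as Egr1 and Fos. In glial and glioma cells the products of SRF target genes build stress fibres, focal adhesions and the contractile apparatus used in migration.

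The genes described here are 34 members of this programme, chosen by symbol: Srf itself, the actins, actin crosslinkers, calponins and transgelins, tropomyosins with caldesmon, non-muscle myosin II, focal adhesion proteins and LIM domain proteins. The list mixes genes long known as SRF targets with structural partners of actin. Of the 34, 32 had a transcript cluster (called a probe here) among 22206 tested, each of the 32 had 1 probe, and Actg1 and Pdlim7 were not analysed here. The actins and the tropomyosins are close paralogs, and whether their probes detect each other's transcripts was not tested.

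Expression was measured on Clarion S mouse arrays in cultures labelled TSC1, from mice of strain FVB-NJ that carried the v-erbB oncogene under the S100β promoter and lacked p53, a genotype shared by every group. There were 4 groups of 3 arrays, 12 in all, each kept for 16 h: a normoxic group given the solvent DMSO, and hypoxic groups given DMSO, brefeldin A (called BFA) or EHT-1864. BFA blocks traffic from the endoplasmic reticulum to the Golgi by trapping ARF GTPases on their exchange factors, and Rac GTPases are the target of EHT-1864. The EHT-1864 dose was 1 µM, while for BFA 1 µM and 0.1 µM both appear in the labels, and the oxygen level of hypoxia is not given in the labels. The compounds were not tested in normoxia in the samples used here. The label text speaks of 3 independent cultures but does not say which arrays shared one, so p-values measure the spread between arrays, which may be partly technical.

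Values are log2 signals. The floor of an array is the 95th percentile of its negative control probes, and a group with no array above it has no measured level, so that a difference is then given as "at least N-fold" against the floor or not at all. "±" after a log2 change is its standard error in limma with n = 3 arrays in each group, and adjusted p is that of Benjamini and Hochberg over 22206 probes with a threshold of 0.05. Among the members, 18 of 32 were above the floor on all 12 arrays, and Flnc, Cnn1, Tagln and Filip1l were below it on every array. The floor lay between 5.59 and 5.64 on the DMSO arrays, between 5.88 and 6.15 with EHT-1864 and between 6.37 and 6.65 with BFA. The hybridization controls, which do not come from the cells, averaged 9.85 ± 0.06 (SD, n = 3) in normoxia and 9.76 ± 0.06 in hypoxic DMSO cultures. Under BFA they averaged 10.93 ± 0.12, and under EHT-1864 10.25 ± 0.07. These shifts moved with every comparison that involves a compound, and their part in those results was not tested. In whole cultures, fewer cells of a type and less RNA per cell cannot be told apart.

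The labelled cell type was checked against markers. Of 11 measured glial progenitor markers, 10 were above the floor on each DMSO array, and Gfap was below it on every array. The log2 of their summed signal was 14.03 to 14.17 on the DMSO arrays, 13.07 to 13.19 with EHT-1864 and 11.53 to 11.64 with BFA. Of 12 markers of smooth muscle and pericytes, cells that are rich in the contractile genes described here, 2 rose above the floor on any array (Smtn and Mylk). The defining genes Myh11, Actg2, Des and Lmod1 were below it on every array. The log2 summed signal of these 12 was 8.62 to 8.81 in normoxia and 8.64 to 8.80 in hypoxic DMSO cultures, 8.80 to 8.93 under BFA and 8.67 to 8.92 under EHT-1864. Above the floor on any array were 1 of 7 fibroblast markers (Col1a1), 2 of 8 markers of skeletal and heart muscle (Actc1 and Ckm), 0 of 6 endothelial and 0 of 6 microglial markers.

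The CArG boxes of the members are shown because the box is what SRF reads. RefSeq promoter windows of assembly GRCm38.p6, from 250 bases before to 50 bases after an annotated start, were found for 30 of the 34 genes and not for Actb, Tagln, Pxn and Tgfb1i1. A CArG box (searched by its consensus on both strands, where the pattern reads the same) was present for 9 of these 30 genes, and for 1.81% of all 27025 genes with a window. The genes were listed as members of the SRF programme, so these shares are a description and not a test. The stretches around the boxes lie upstream of the start and are printed 5′ to 3′ on the gene's strand, with the box in capitals.
Srf, chr17:46556195-46556264, minus strand: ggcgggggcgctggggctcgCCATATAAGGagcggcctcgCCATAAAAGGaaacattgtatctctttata
Cnn2, chr10:79988524-79988573, plus strand: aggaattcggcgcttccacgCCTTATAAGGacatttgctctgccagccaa
Vcl, chr14:20929151-20929200, plus strand: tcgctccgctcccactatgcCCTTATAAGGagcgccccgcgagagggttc
Lima1, chr15:99820167-99820216, minus strand: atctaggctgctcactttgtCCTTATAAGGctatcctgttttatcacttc
Filip1l, chr16:57549160-57549209, plus strand: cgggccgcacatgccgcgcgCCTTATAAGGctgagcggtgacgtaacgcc
Myl9, chr2:156775283-156775332, plus strand: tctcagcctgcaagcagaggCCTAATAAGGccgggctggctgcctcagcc
Myl6, chr10:128493030-128493079, minus strand: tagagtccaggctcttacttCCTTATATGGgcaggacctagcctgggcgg
Fhl2, chr1:43163963-43164012, minus strand: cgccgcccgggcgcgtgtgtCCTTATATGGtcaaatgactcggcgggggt
Fhl2 (another start), chr1:43196828-43196877, minus strand: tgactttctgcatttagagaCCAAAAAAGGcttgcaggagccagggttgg
Actg1, chr11:120348556-120348605, minus strand: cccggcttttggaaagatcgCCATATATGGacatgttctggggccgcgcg

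Srf carried 2 boxes, which began 82 and 62 bases before its start. Cnn2, Vcl, Lima1 and Filip1l carried the identical box CCTTATAAGG, at 56, 227, 47 and 62 bases before the start. The motif GGAATG of the TEAD factors, searched on both strands, was in a window of 11 of 30 members (Acta2, Actn4, Cald1, Flna, Flnc, Lpp, Myh10, Myl12a, Tagln2, Tpm1 and Vcl) and of 16.6% of all genes. Vcl was the member with both motifs. A match is a string of letters and not a shown binding site.

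**Figure D1:**
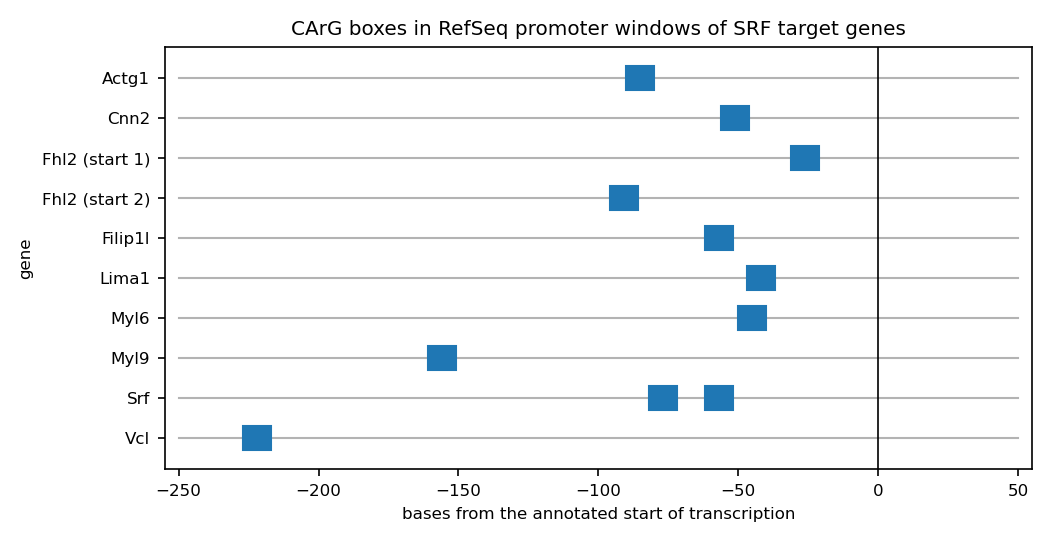
Positions of CArG boxes (blue) in the promoter windows of the 9 members that held one; the x axis gives bases from the annotated start of transcription (line at 0) and each row is a window. Srf has 2 boxes in 1 window, at −82 and −62, Fhl2 has 1 box at each of its annotated starts, and the box of Vcl lies farthest out, at −227.

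The first comparison asked whether hypoxia changed these genes in DMSO-treated cells. Tagln2, a transgelin that binds and stabilises actin filaments, was the member that passed, and it was lower in hypoxia. None of 32 passed as higher, against 2.11% of all probes, and 1 of 32 passed as lower, against 0.563% of all probes. At an unadjusted limma p under 0.05 4 of 32 were higher, against 8.0% of all probes, and 6 of 32 lower, against 7.80% of all probes. The median log2 change of the members was −0.06, and that of all probes −0.03.

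Tagln2 measured 10.38, 10.52 and 10.40 in normoxia and 9.89, 9.92 and 9.93 in hypoxia with DMSO, so that the arrays did not overlap. It fell by 0.52 on the log2 scale (SE 0.11, 1.43-fold, limma adjusted p = 0.0240). This call was lost without any 1 of the 6 arrays compared (limma adjusted p up to 0.125).

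Some members had differences of like size that did not pass. Tln1, which encodes talin, the link from integrins to actin, measured 9.40, 9.30 and 9.20 in normoxia and 10.01, 9.81 and 9.73 in hypoxia with DMSO. Its difference was 0.55 ± 0.14 (limma adjusted p = 0.0512), just outside the threshold. The heavy chain gene of non-muscle myosin II Myh9 differed by 0.57 ± 0.17 (limma adjusted p = 0.106) and the filamin gene Flna by 0.54 ± 0.22 (limma adjusted p = 0.241). With a trended, robust variance model Tln1 and Myh9 passed as higher (limma adjusted p = 0.00183 and 0.00833). Srf itself differed by −0.30 ± 0.12 (limma adjusted p = 0.258). The interval of that difference, −0.56 to −0.03 at 95% for this gene alone, does not reach a 2-fold change.

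**Figure D2:**
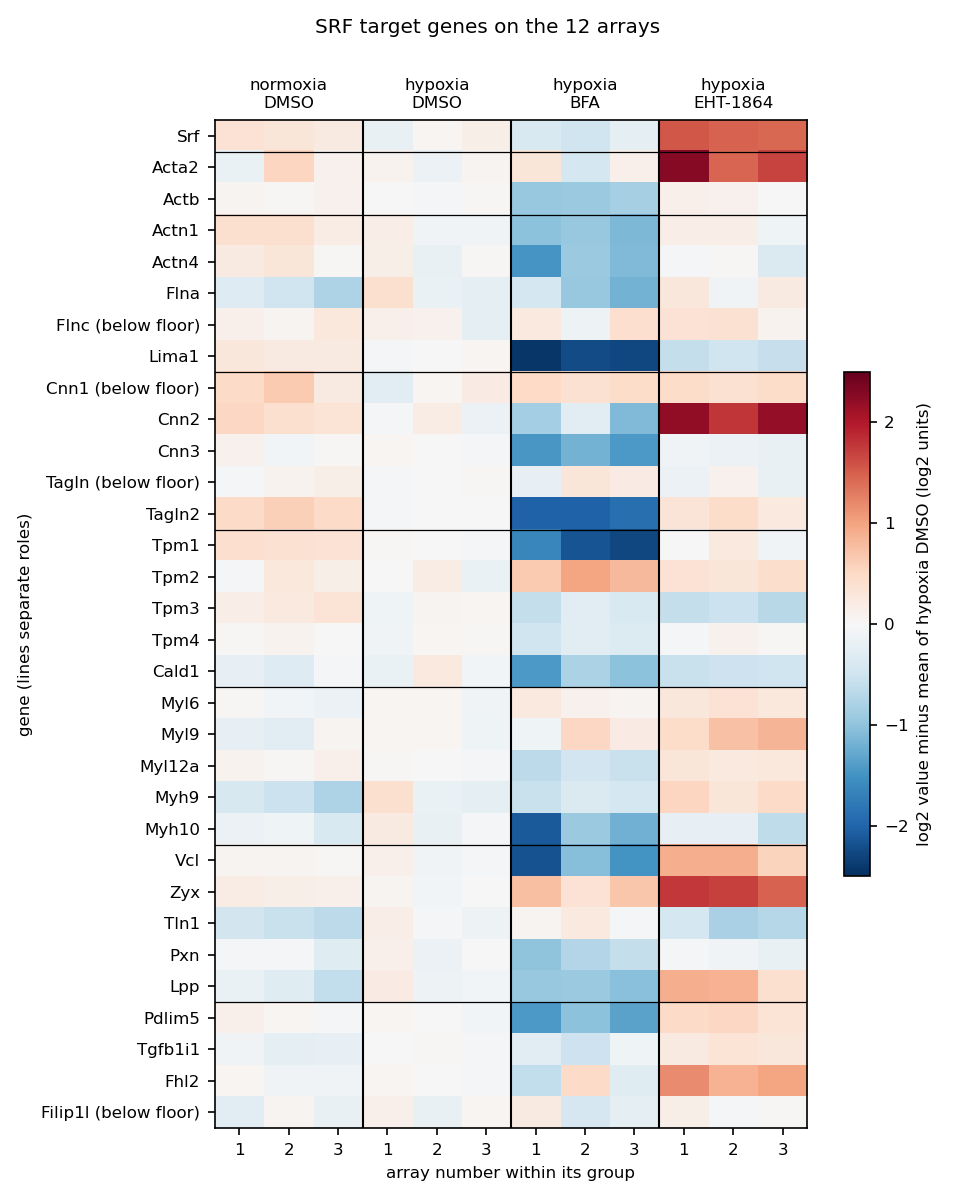
Log2 value of each measured member on each array minus its mean in hypoxia with DMSO (colour, log2 units, cut at ±2.5); rows are genes grouped by role and columns are the 3 arrays of each group. The BFA columns are mostly blue, with Lima1, Tagln2 and Tpm1 darkest, while Srf, Acta2, Cnn2 and Zyx are red on each EHT-1864 array.

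The second comparison asked what BFA did in hypoxia. Most members fell: 20 of 32 passed as lower, against 24.6% of all probes, and 3 of 32 as higher, against 26.1% of all probes. The median log2 change of the members was −0.51, and that of all probes 0.11. Over the 26 members not below the floor in both groups, with those below it in 1 group set at their bound, the median was −0.67. Among the 6557 probes above the floor on all 12 arrays, 37.7% were lower and 20.8% higher with BFA, so brighter probes leaned downwards in general. The falls took in cytoplasmic actin, both alpha-actinins, filamin A, 4 of 5 genes of the tropomyosin group and 3 of 5 myosin II genes.

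Lima1 encodes EPLIN, which crosslinks actin filaments and slows their depolymerisation. Its values were 10.74, 10.79 and 10.83 in hypoxia with DMSO and 8.36, 8.55 and 8.51 with BFA. It fell by 2.31 on the log2 scale (SE 0.11, 4.96-fold, limma adjusted p = 6.12e-09). In normoxia it stood at 11.07, 11.00 and 11.01, near the DMSO arrays in hypoxia and far above BFA.

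Tpm1, a tropomyosin that coils along actin filaments, measured 9.75, 9.73 and 9.66 with DMSO and 8.09, 7.56 and 7.43 with BFA. It fell by 2.02 on the log2 scale (SE 0.16, 4.06-fold, limma adjusted p = 5.03e-07). In normoxia Tpm1 was at 10.13, 10.10 and 10.07. Tagln2 was at 7.89, 7.89 and 8.03 with BFA, against 9.89 to 9.93 with DMSO, and fell by 1.98 on the log2 scale (SE 0.11, limma adjusted p = 2.66e-08). The BFA arrays of both genes lay well below every other array of the series. Cnn3, the acidic calponin, fell by 1.36 on the log2 scale (SE 0.11, limma adjusted p = 9.22e-07).

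Vinculin, encoded by Vcl, couples talin to actin at adhesions. Vcl measured 7.44, 7.21 and 7.28 with DMSO and 5.13, 6.25 and 5.81 with BFA, where each array was below the floor, and in normoxia 7.37, 7.38 and 7.34. It was at least 1.76-fold lower (limma adjusted p = 7.40e-05), and the BFA arrays spread more than those of other groups. The adhesion gene Lpp, of the zyxin family, was at least 1.44-fold lower (limma adjusted p = 3.25e-04), and the scaffold gene Pxn, which encodes paxillin, fell by 0.78 on the log2 scale (SE 0.14, limma adjusted p = 5.03e-04).

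Actb, the cytoplasmic beta-actin, measured 12.88, 12.86 and 12.92 with DMSO and 11.95, 11.96 and 12.06 with BFA. It fell by 0.90 on the log2 scale (SE 0.10, 1.87-fold, limma adjusted p = 1.31e-05); whether its signal was saturated was not tested. The crosslinker Actn4 fell by 1.17 on the log2 scale (SE 0.16, limma adjusted p = 7.99e-05) and its relative Actn1 was at least 1.74-fold lower (limma adjusted p = 2.68e-05). In normoxia Actb measured 12.95, 12.91 and 13.00, so the BFA arrays stand apart by far more than the spread within groups.

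In the myosin II group, Myh10 fell by 1.41 on the log2 scale (SE 0.25, limma adjusted p = 4.52e-04), with 2 of 3 BFA arrays above the floor. The light chain Myl12a fell by 0.57 (SE 0.10, limma adjusted p = 5.97e-04). The other light chains gave values of 0.14 ± 0.11 for Myl6 and 0.20 ± 0.17 for Myl9, which did not pass (limma adjusted p = 0.302 and 0.333). Myl9 had 1 of 3 BFA arrays above the floor. After quantile normalization Myl6 passed as higher (0.41, limma adjusted p = 0.00910). Cald1, encoding caldesmon, which restrains myosin on actin, measured 8.27, 8.69 and 8.37 with DMSO and 7.0, 7.66 and 7.41 with BFA, and fell by 1.09 (SE 0.17, limma adjusted p = 1.73e-04). In normoxia Cald1 was at 8.25, 8.12 and 8.41. Pdlim5, an adaptor of alpha-actinin, fell by 1.26 (SE 0.13, limma adjusted p = 4.73e-06).

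Srf measured 7.42, 7.68 and 7.76 with DMSO and 7.23, 7.11 and 7.37 with BFA. It fell by 0.38 on the log2 scale (SE 0.12, limma adjusted p = 0.0207), a small step whose arrays did not overlap. After quantile normalization the difference was −0.03 (limma adjusted p = 0.880), and it did not pass without hypoxia DMSO array 2 or 3 or BFA array 2 (limma adjusted p up to 0.0895). The falls of Flna, Tpm3, Tpm4 and Myh9 also missed the threshold after quantile normalization (limma adjusted p = 0.0538, 0.185, 0.471 and 0.377).

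Tpm2, Zyx and Cnn1 went up with BFA. Tpm2, a tropomyosin, measured 5.77, 5.97 and 5.63 with DMSO and 6.45, 6.78 and 6.61 with BFA, with 2 of 3 BFA arrays above the floor, and in normoxia 5.73, 6.06 and 5.93. It rose by 0.82 ± 0.14 (limma adjusted p = 2.87e-04). These values lie close to the floor, which was itself higher with BFA (6.37 to 6.65) than with DMSO in hypoxia (5.60 to 5.64). The part of that shift in the rise of Tpm2 was not tested. Zyx encodes zyxin, which moves to strained actin fibres and repairs them. It measured 7.64, 7.51 and 7.57 with DMSO and 8.32, 7.94 and 8.26 with BFA, and rose by 0.60 ± 0.13 (1.52-fold, limma adjusted p = 0.00200). Its normoxia arrays were at 7.75, 7.72 and 7.71. Cnn1, the smooth muscle calponin, passed as higher (limma adjusted p = 0.0201). It measured 3.04, 3.35 and 3.51 with DMSO and 3.80, 3.69 and 3.77 with BFA, and in normoxia 3.78, 3.96 and 3.53. All of these lie below the floor, so no fold is given. Its call was lost without hypoxia DMSO array 1 (limma adjusted p = 0.0970) and after quantile normalization (0.662).

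**Figure D3:**
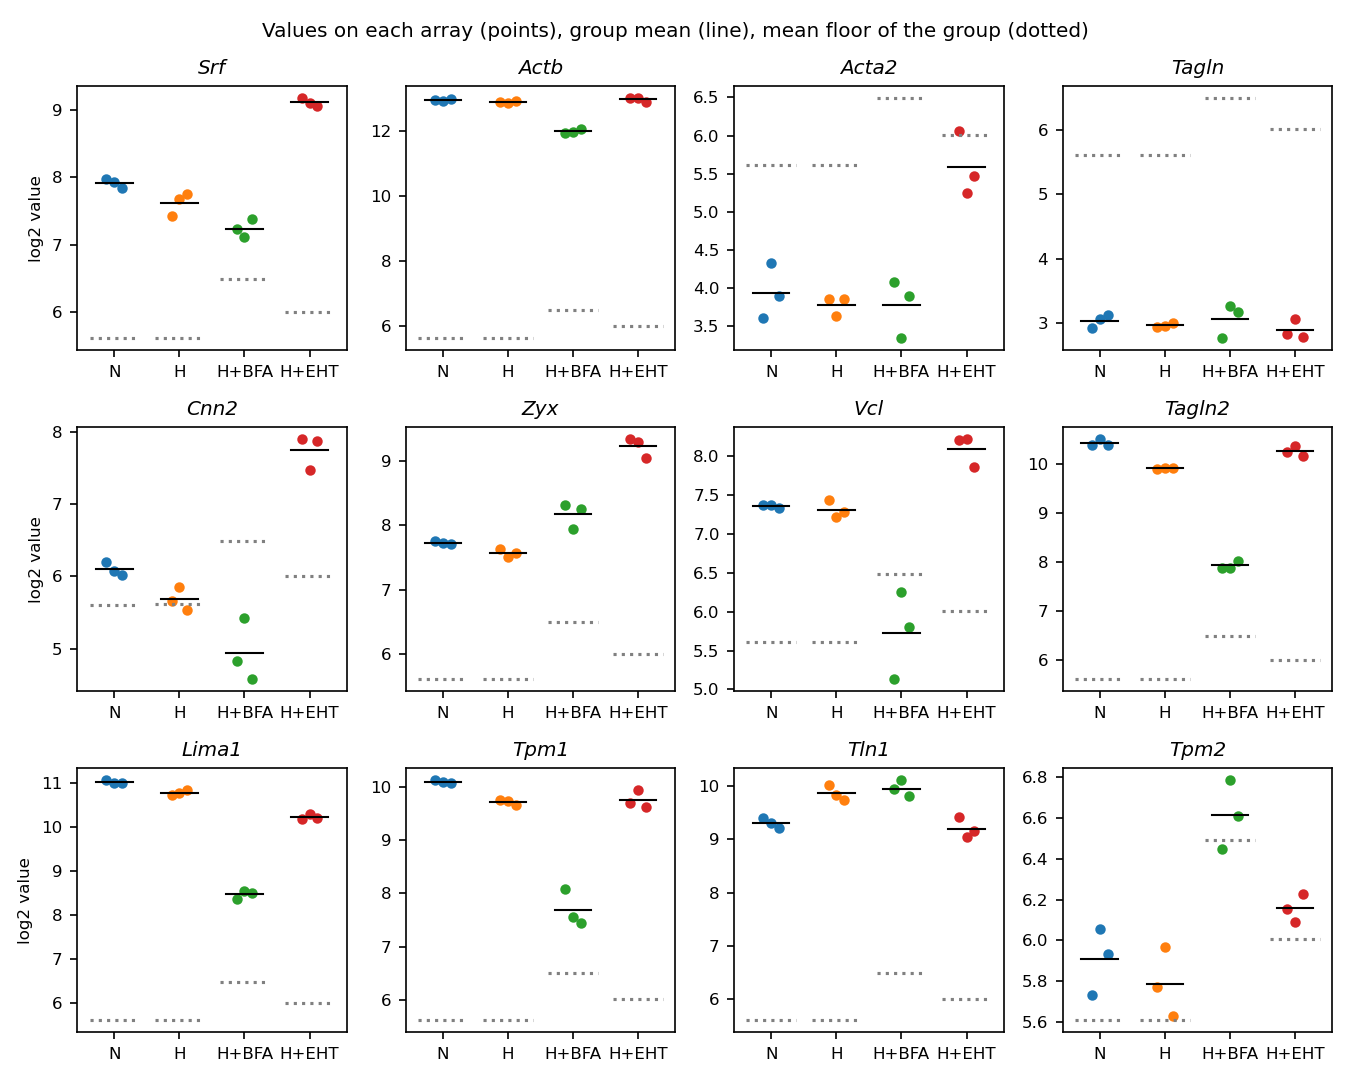
Log2 value (y axis, its own range in each panel) of 12 members on each array (points), with group means (lines) and the mean floor of each group (dotted), for normoxia (N), hypoxia (H) and the hypoxic BFA and EHT-1864 cultures. Srf and Zyx peak with EHT-1864, Lima1, Tagln2 and Tpm1 drop with BFA, and Tagln stays below the floor in each group.

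The third comparison asked what the Rac inhibitor EHT-1864 did in hypoxia. Srf itself rose, as did the adhesion gene Zyx and the calponin gene Cnn2: 12 of 32 members passed as higher, against 13.0% of all probes, and 4 of 32 as lower, against 17.4% of all probes. The 12 include Cnn1, below the floor on every array, and Acta2, above it on 1 array. The median log2 change of the members was 0.27, and that of all probes 0.06. Over the 28 members not below the floor in both groups, with bounds as above, the median was 0.21. Over the 18 members above the floor on all 12 arrays it was 0.063. In the fit over all probes 5 of these 18 passed as higher and 4 as lower. Among the 6557 probes that met the same filter 17.0% were higher and 27.0% lower. Without EHT-1864 array 2 the count higher was 7, with Cnn1, Myl6, Pdlim5, Tagln2 and Vcl missing the threshold.

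Srf measured 9.18, 9.10 and 9.05 with EHT-1864, against 7.42, 7.68 and 7.76 with DMSO. It rose by 1.49 ± 0.12 (2.81-fold, limma adjusted p = 3.57e-06). Its 3 EHT-1864 arrays lay above all other arrays, including normoxia at 7.97, 7.92 and 7.85. The rise remained past the threshold in each alternative fit.

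Cnn2, the calponin of non-muscle cells, had the largest log2 rise among the members. Its values were 5.65, 5.86 and 5.53 with DMSO, where 2 of 3 arrays were above the floor, and 7.90, 7.47 and 7.88 with EHT-1864. It rose by 2.07 ± 0.20 (4.19-fold, limma adjusted p = 1.17e-05). The BFA arrays were at 4.83, 5.42 and 4.57, below the floor. Normoxia arrays were at 6.20, 6.07 and 6.02, below each EHT-1864 array.

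Zyx measured 9.34, 9.28 and 9.04 with EHT-1864 and rose by 1.65 ± 0.13 (3.14-fold, limma adjusted p = 2.52e-06). Of the other adhesion genes, Vcl measured 8.21, 8.22 and 7.87 and rose by 0.79 ± 0.22 (limma adjusted p = 0.0162), a call lost without hypoxia DMSO array 2 or EHT-1864 array 2 (limma adjusted p up to 0.0599). Lpp rose by 0.72 ± 0.16 (limma adjusted p = 0.00530). Talin moved the other way: Tln1 measured 9.40, 9.04 and 9.15, against 9.73 to 10.01 with DMSO, and fell by 0.66 on the log2 scale (SE 0.14, limma adjusted p = 0.00303). Pxn differed by −0.10 ± 0.14 (limma adjusted p = 0.604).

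Acta2, the smooth muscle alpha-actin, passed as higher (limma adjusted p = 1.37e-04). It measured 6.05, 5.25 and 5.47 with EHT-1864, of which 1 array was above the floor. With DMSO it measured 3.86, 3.63 and 3.85, in normoxia 3.61, 4.32 and 3.90 and with BFA 4.08, 3.34 and 3.90, all below the floor. The EHT-1864 arrays lay above the others, but no fold is given because the level with EHT-1864 barely reached the floor. The smooth muscle gene Actg2, which is no member and was picked after its values were seen, encodes a further actin. It also stood higher (5.74 against 4.03 with DMSO, limma adjusted p = 7.71e-06) with each array below the floor. Of the 12 markers of smooth muscle and pericytes, 2 passed as higher with EHT-1864 and 1 as lower, against 13.0% and 17.4% of all probes. In both groups 10 of the 12 were below the floor. Tagln measured 2.83, 3.07 and 2.78 with EHT-1864 and 2.94, 2.96 and 3.01 with DMSO (limma adjusted p = 0.718). In normoxia Tagln measured 2.92, 3.06 and 3.12, and with BFA 2.76, 3.27 and 3.18, so its groups overlapped below the floor.

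Fhl2, a LIM domain cofactor and SRF target, averaged 6.05 ± 0.16 (SD, n = 3) with EHT-1864, with 2 of 3 arrays above the floor, and was at least 1.35-fold higher (limma adjusted p = 0.00342). Myl9, the regulatory myosin light chain of contractile cells, rose by 0.68 ± 0.17 (limma adjusted p = 0.00863). Smaller rises were those of Pdlim5 at 0.44 ± 0.13, Tagln2 at 0.35 ± 0.11 and Myl6 at 0.31 ± 0.11 (limma adjusted p = 0.0197, 0.0295 and 0.0499). Leaving out 1 array at a time, the call of Myl6 was lost without 10 of the 12 arrays (every array except BFA arrays 1 and 2). That of Tagln2 was lost without any 1 of the hypoxia DMSO arrays or EHT-1864 array 1 or 2, and that of Pdlim5 without hypoxia DMSO array 3 or EHT-1864 array 1 or 2 (limma adjusted p up to 0.166, 0.100 and 0.0699 for Myl6, Tagln2 and Pdlim5). Among the members that did not pass, small differences were 0.08 ± 0.10 for Actb, 0.08 ± 0.13 for Actn1, 0.14 ± 0.22 for Flna and 0.04 ± 0.16 for Tpm1. Myh9, Tpm2 and Myl12a differed by 0.44 ± 0.17, 0.37 ± 0.14 and 0.27 ± 0.10 (limma adjusted p = 0.0654, 0.0566 and 0.0608). These genes and Tgfb1i1 passed as higher in some of the alternative fits. The largest difference downwards that did not pass was −0.35 ± 0.25 for Myh10 (limma adjusted p = 0.312). For Actb, which measured 13.01, 13.00 and 12.90 with EHT-1864, the 95% interval of the difference was −0.14 to 0.30.

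Besides Tln1, the genes that fell were Tpm3, Lima1 and Cald1. Tpm3, a tropomyosin, measured 9.99, 10.05 and 9.90, against 10.48, 10.66 and 10.64 with DMSO, and fell by 0.61 on the log2 scale (SE 0.12, limma adjusted p = 0.00222). Tpm3 measured 10.77, 10.83 and 10.93 in normoxia and 10.01, 10.34 and 10.22 with BFA. Lima1 measured 10.20, 10.29 and 10.22 and fell by 0.55 (SE 0.11, limma adjusted p = 0.00174). Cald1 measured 7.88, 7.92 and 7.95 and fell by 0.52 (SE 0.17, limma adjusted p = 0.0316), a call lost without hypoxia DMSO array 2 or 3 or any 1 EHT-1864 array (limma adjusted p up to 0.126). Cnn1 passed as higher (limma adjusted p = 0.0391) at 3.75, 3.67 and 3.77, below the floor, as described for BFA, and lost its call without 6 of the 12 arrays in turn (limma adjusted p up to 0.165).

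**Figure D4:**
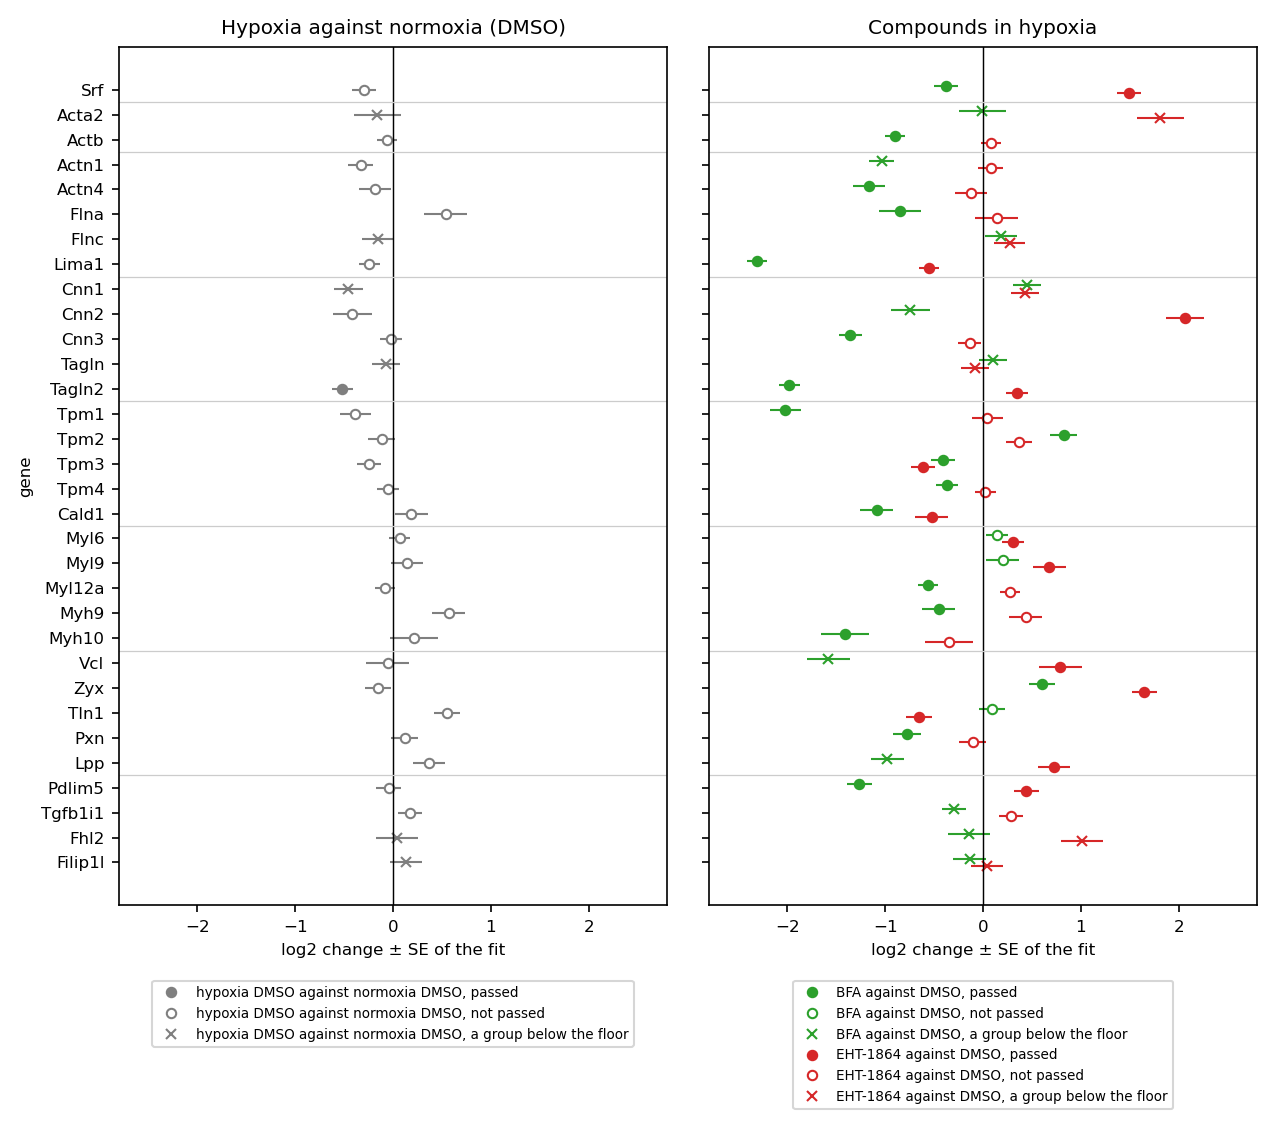
Log2 change with its standard error (x axis) for each measured member (y axis, lines separate roles), for hypoxia against normoxia (left) and for BFA (green) and EHT-1864 (red) against DMSO in hypoxia (right). Filled circles passed an adjusted p of 0.05, open circles did not, and crosses mark genes with a group below the floor, whose changes have no measured size; BFA and EHT-1864 lie on opposite sides of 0 for Srf, Tagln2 and Pdlim5.

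BFA and EHT-1864 were each set against the same DMSO arrays, so the difference between the compounds was tested directly. With BFA, 24 of 32 members were lower than with EHT-1864, against 19.6% of all probes, and 2 of 32 were higher, against 16.9% of all probes. For 7 of the 26 members called, every BFA array was below the floor. Among the 6557 probes above the floor on every array of the series, 33.9% were lower and 23.2% higher with BFA. Of the 18 members that met this filter, 15 were lower and 1 was higher. The median log2 difference of the members was −0.99, and that of all probes 0.06. With bounds, over 28 members, the median was −0.94. The compounds act on different targets and the BFA dose is not settled, so these are differences between 2 treatments and not between doses.

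Tagln2 was 5.02-fold lower with BFA than with EHT-1864, at 7.89 to 8.03 against 10.25, 10.38 and 10.16 (log2 difference −2.33 ± 0.11, limma adjusted p = 1.96e-08). Tpm1, at 9.70, 9.95 and 9.63 with EHT-1864, was 4.18-fold lower (limma adjusted p = 5.62e-07). Srf was 3.66-fold lower (log2 difference −1.87 ± 0.12, limma adjusted p = 1.62e-07). Bounds were at least 3.05-fold lower for Vcl (limma adjusted p = 2.83e-06) and at least 2.39-fold lower for Cnn2 and for Lpp (limma adjusted p = 2.78e-07 and 3.91e-06). Zyx, which was higher with each compound than with DMSO, was 2.07-fold lower with BFA than with EHT-1864 (limma adjusted p = 3.19e-05).

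Tln1 and Tpm2 were the members higher with BFA than with EHT-1864. Tln1 measured 9.93, 10.10 and 9.80 with BFA, and differed by 0.75 ± 0.14 (1.68-fold, limma adjusted p = 7.22e-04). Tpm2 measured 6.15, 6.09 and 6.23 with EHT-1864 and differed by 0.45 ± 0.14 (limma adjusted p = 0.0188). Its values lay close to the floor with both compounds, and the floor was higher with BFA (6.37 to 6.65) than with EHT-1864 (5.88 to 6.15). The call of Tpm2 was lost without BFA array 2 or EHT-1864 array 2 (limma adjusted p up to 0.0626), which leaves 1 member higher. No difference passed for Cnn1, Flnc, Tagln and Filip1l, which were below the floor, or for Tpm3 and Myl6 (0.21 ± 0.12 and −0.17 ± 0.11, limma adjusted p = 0.207 and 0.262).

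Set beside the promoter sequences, the 8 genes with a probe and a CArG box counted 6 higher and 1 lower with EHT-1864 (median log2 change 0.73). The 20 genes with a probe whose windows held none counted 6 higher and 3 lower (median 0.21), against 13.0% higher and 17.4% lower of all probes. Calls as higher were lost in some fits that left out 1 array for Vcl and Myl6, with a box. The same held for Cnn1, Tagln2 and Pdlim5, without one. With BFA the counts were 0 higher and 4 lower of 8 (median −0.26), and 3 higher and 14 lower of 20 (median −0.71). The shares of all probes were 26.1% higher and 24.6% lower. These medians take in values below the floor, which are not measured levels. Among the genes with a box, Filip1l was below the floor on every array, Fhl2 on each DMSO and BFA array, and Cnn2 and Vcl on each BFA array. Among those without, Flnc and Cnn1 were below it on every array, Acta2 on each DMSO and BFA array, and Actn1 and Lpp on each BFA array. The difference between these groups of genes was not tested. The 4 genes with the identical box CCTTATAAGG went different ways: with EHT-1864 Cnn2 and Vcl rose, Lima1 fell and Filip1l was below the floor. Lima1 and Vcl were both lower with BFA, by at least 1.76-fold for Vcl and 4.96-fold for Lima1. No CArG box was found in the window of Zyx or Acta2, which says only that the consensus is not in these 300 bases.

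Genes around SRF were listed by role, and their counts are to be read against the shares of all probes: 2.11% higher and 0.563% lower in hypoxia, 26.1% and 24.6% with BFA, and 13.0% and 17.4% with EHT-1864. Of 8 MRTF cofactors, TCF factors and related regulators, none passed in hypoxia, 2 fell with BFA and 3 fell with EHT-1864, and none rose with either compound, so the share lower with BFA, 2 of 8, is near that of all probes. Elk3, a TCF factor, was at least 2.68-fold lower with BFA (limma adjusted p = 1.25e-08) and fell by 2.32 with EHT-1864 (SE 0.15, limma adjusted p = 4.00e-07, 1 of 3 arrays above the floor). Elk4 fell by 0.66 with EHT-1864 (SE 0.14, limma adjusted p = 0.00340). Mrtfa, the MRTF-A cofactor gene, differed by 0.15 ± 0.10 with BFA (limma adjusted p = 0.241) and fell by 0.32 with EHT-1864 (SE 0.10, limma adjusted p = 0.0318).

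Of 9 immediate early genes listed as SRF targets, none passed in hypoxia. Whether each of them depends on the TCF arm was not tested. With BFA 3 rose and 5 fell, and with EHT-1864 1 rose and 5 fell, the 1 of 9 that rose being near the 13.0% of all probes. Egr1 had log2 changes of −1.49 ± 0.14 with BFA and −2.26 ± 0.14 with EHT-1864 (limma adjusted p = 2.60e-06 and 3.37e-07). Egr2 had −2.37 ± 0.17 and −2.24 ± 0.17 (limma adjusted p = 2.08e-07 and 1.64e-06). Fos fell by 2.10 with BFA (SE 0.17, limma adjusted p = 7.60e-07), and its difference with EHT-1864 was 0.00 ± 0.17. Junb rose with both compounds, by 0.79 ± 0.13 and 0.45 ± 0.13 (limma adjusted p = 2.04e-04 and 0.0160).

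Of 16 measured genes of RhoA signalling to actin, 2 rose in hypoxia, 10 fell with BFA, and with EHT-1864 2 rose and 6 fell, the 2 of 16 that rose being near the 13.0% of all probes. The genes that rose in hypoxia were Arhgef2, a RhoA exchange factor bound to microtubules, by 1.11 ± 0.19 (limma adjusted p = 0.00645), and the myosin light chain kinase Mylk, at least 1.11-fold (limma adjusted p = 0.0146, 2 of 3 arrays above the floor). With BFA the profilin Pfn2 fell by 1.90 (SE 0.15, limma adjusted p = 5.02e-07), and Mylk passed as lower below the floor (limma adjusted p = 0.00228), with no fold given. With EHT-1864 the formin Diaph3 and the cofilin Cfl2 rose by 0.63 ± 0.13 and 0.40 ± 0.10 (limma adjusted p = 0.00324 and 0.0104). Pfn2 fell by 1.38 (SE 0.15, limma adjusted p = 2.80e-05).

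Of 16 measured further focal adhesion partners, 1 rose in hypoxia (Sorbs3, a vinculin-binding adaptor, by 0.87 ± 0.13, limma adjusted p = 0.00217). With BFA 11 passed as lower and 1 rose. Tns1, Trip6 and Tes were below the floor on every array, so their differences have no measured size. Among the 6557 probes above the floor on all 12 arrays, 37.7% were lower with BFA. With EHT-1864 2 of 16 rose and 2 fell, near or below the shares of all probes. Tns3, a tensin, fell by 1.97 with BFA (SE 0.16, limma adjusted p = 8.06e-07, 1 of 3 arrays above the floor) and by 0.71 with EHT-1864 (SE 0.16, limma adjusted p = 0.00559). Ajuba, a LIM protein of the zyxin family, rose by 1.26 ± 0.20 with BFA (limma adjusted p = 2.46e-04, 2 of 3 arrays above the floor in both groups). Csrp1, a LIM protein that binds alpha-actinin and zyxin, rose by 0.63 ± 0.15 with EHT-1864 (limma adjusted p = 0.00816).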

How the data were processed

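RNA of 12 samples in 4 groups was measured on Clarion S mouse arrays. The deposited values are on the log2 scale, 1 per transcript cluster and array, and were made by the authors with RMA in Affymetrix Expression Console, per the submitters' processing notes; versions, settings and genome build are not given in the sources used here. RMA brings the arrays to a common scale, which hides any difference in RNA amount between cultures. The deposited values did not share 1 distribution: the SD over probes averaged 2.28 on the BFA arrays and 2.51 on those of hypoxic DMSO cultures. Of 28846 rows, 6640 controls were left out. Gene symbols came from the platform's annotation, brought up to date through Entrez numbers (GRCm38.p6).

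All 12 arrays were fitted together with limma 3.58.1 in R 4.3.3 (lmFit, eBayes, no trend, not robust; residual df 8, prior df 4.87), so that the groups share 1 spread. The number of arrays limits the precision. Values on every array are given for, per comparison, up to 4 largest rises and 4 largest falls past the threshold without overlap of arrays, and for Srf, Actb, Acta2 and Tagln; other members are given by change or count. From the lists of related genes, up to 2 rises and 2 falls per comparison were named, with their values in other comparisons; Actg2 was named after its values were seen. The members and lists were chosen with earlier results of these data known. Same-numbered arrays were not treated as pairs, since 0 of 12 correlations of their deviations from the group means exceeded 0.1 (−0.18 to 0.07). Alternatives were other normalizations, filters, variance models, array weights, a replicate block, fits of 6 arrays, and leaving out each array. Promoter motifs were counted by exact match.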

Additional observations from a re-analysis of the deposited data

How the results depend on the processing

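Every called member kept its direction in each alternative. In the alternatives that tested them, 17 of 23 calls with BFA, 10 of 16 with EHT-1864, 22 of 26 between the compounds and 0 of 1 in hypoxia stayed past the threshold. Without each array in turn, the members called in hypoxia numbered 0 to 2, the higher ones 0 to 1 and the lower ones 0 to 1. For EHT-1864 the called members numbered 10 to 18 and the higher ones 7 to 14, and for BFA against EHT-1864 the higher ones numbered 1 to 2 and the median ran from −0.99 to −0.87. The replicate block gave 0 members called and 0 lower in hypoxia; 4 of 12 arrays correlated best with their own number.

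In hypoxia, 2 members were called and 1 was higher after quantile normalization, 3 and 2 with either filter on dim probes or the trended, robust model, and 5 (2 higher, 3 lower) with array weights. With the 6 arrays of the comparison alone, 3 were called (1 higher, 2 lower) in hypoxia, and 1 was higher between the compounds. After quantile normalization the median was −0.41 for BFA and −0.78 between the compounds. Restricting the fit to probes that passed the floor on 3 or more arrays, or on all 12, gave −0.81 for BFA over the 26 or 18 members left. The 26 include Actn1, Cnn2, Vcl, Lpp and Tgfb1i1, which were below the floor on every BFA array. Their BFA values enter that median though they are not measured levels, and with bounds the median over 26 members was −0.67. On all 12 arrays, with 18 members left, 1 was higher with BFA, 7 were higher with EHT-1864 (median 0.063), and between the compounds 16 were called, 1 higher and 15 lower. Above the 99th percentile of the negative controls on all 12 arrays were 4 members in place of 18. The mean of several clusters changed nothing, as each gene had 1.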
